A study of Homo sapiens with 6 samples.

Results

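The nuclear factor I (NFI) family comprises 4 genes, NFIA, NFIB, NFIC and NFIX, which were selected by symbol from the 58174 genes listed for A549 cells, an established human lung adenocarcinoma line. All 4 passed the expression filter, a mean of at least 0.5 FPKM over the 6 libraries, and thus were among the 16006 genes tested. FPKM denotes fragments scaled to gene length and library size, so that values can be compared between genes of different length. PolyA RNA-seq had been performed on 3 libraries of parental cells (Ctrl) and 3 libraries of cells carrying a CRISPR/Cas9 deletion in the MIR21 locus (MIR21-KO), all harvested 48 h after seeding. No other agent or allele distinguished the groups according to the labels. MIR21-KO cells had been obtained by transfecting Cas9 with a pair of guide RNAs and sorting single cells, whereas the study describes Ctrl cells as parental. Whether Ctrl cells were also transfected or sorted is not stated. The sources do not say how many clones gave rise to the 3 MIR21-KO libraries, so differences between clones and the deletion itself cannot be told apart. The study describes the 3 libraries of a group as independent samples without saying whether they came from separate cultures or clones, and p-values measure the spread between these libraries.

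NFI proteins are transcription factors that bind a palindromic DNA site as homodimers or heterodimers through a conserved N-terminal domain, and activate or repress genes depending on the promoter. NFIB is required for maturation of the fetal lung, NFIA promotes glial fate and steers blood progenitors, NFIC is required for tooth root formation, and NFIX controls fetal muscle genes and neural stem cells. NFIB has been described both as a repressor at the MIR21 promoter and as a target of miR-21, which is why the family was considered in cells lacking this miRNA. Mature miRNAs pair through their seed, bases 2 to 8 counted from the 5′ end, with sites in mRNA 3′ UTRs, and thereby lower stability or translation of the mRNA.

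The sequences of miR-21-5p and of let-7a-5p, a miRNA with another seed whose family the study also followed in MIR21-KO cells, were taken from RefSeq (GRCh38.p14) and are shown 5′ to 3′ with the seed in capitals. The mature miR-21-5p is encoded at chr17:59841273-59841294 and let-7a-5p at chr9:94175962-94175983, both on the plus strand.
hsa-miR-21-5p: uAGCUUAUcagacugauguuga
hsa-let-7a-5p: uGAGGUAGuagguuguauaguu

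To see which family members hold miR-21-5p seed matches, the longest annotated 3′ UTR of each gene (GENCODE 29, GRCh38) was searched on the mRNA strand. Searched words were ATAAGCT (7mer-m8, pairing with the whole seed), TAAGCTA (7mer-A1, pairing with bases 2 to 7 and followed by A), their union (8mer) and TAAGCT (6mer), where each site was counted once under its longest type. NFIA and NFIB each held 1 8mer. NFIC held 1 6mer, and NFIX held no match in any of its 8 annotated 3′ UTRs, the longest of which spans 4182 bases. The sites are shown as 30-base stretches of the 3′ UTR, 5′ to 3′ on the mRNA strand, with the matching bases in capitals, because they separate the members into those with and without a seed match.
NFIA 8mer, chr1:61456486-61456515, plus strand: tcatggtatctgttaattttATAAGCTAga
NFIA 7mer-m8, chr1:61459715-61459744, plus strand: tttttccaagcccttagccccATAAGCTtt
NFIA 6mer, chr1:61457752-61457781, plus strand: aagcagtcaaactgtgaagcacTAAGCTga
NFIB 8mer, chr9:14087858-14087887, minus strand: gatgccttaatatttgcatgATAAGCTAgt
NFIB 7mer-A1, chr9:14082901-14082930, minus strand: ctaaatacatgaaaagcagtgTAAGCTAgt
NFIC 6mer, chr19:3464351-3464380, plus strand: cgttgagccgctccaaaaacacTAAGCTgg

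The NFIA 8mer starts at base 1186 of the 7473-base 3′ UTR of transcript NFIA-207, and the NFIB 8mer at base 442 of the 6461-base 3′ UTR of NFIB-205. Among 11657 tested protein-coding genes with a 3′ UTR, 2.98% held an 8mer for miR-21-5p, 7.58% had a 7mer-m8 as their best match, 4.59% a 7mer-A1, 14.3% a 6mer, and 70.5% had none of these. The words for let-7a-5p (7mer-m8 CTACCTC and the corresponding 7mer-A1, 8mer and 6mer) were found in NFIA only, as 1 7mer-m8 and 1 6mer. A match is a description of the annotated sequence, and which 3′ UTR isoforms A549 cells use was not tested.

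Sequencing depth was similar between the groups. Between 10631667 and 14345209 reads per library were recovered from the deposited values, and the 4 members were covered by 178 to 1801 reads per gene and library. MIR21 itself was listed with 0 reads in each of the 6 libraries, and since polyA libraries miss the mature miRNA and its short precursor, this checks neither group. VMP1, the gene that contains MIR21, was at 70.7, 76.8 and 77.8 FPKM in Ctrl and at 134.6, 144.5 and 148.5 FPKM in MIR21-KO. Of 6 epithelial markers, the keratins KRT7, KRT8, KRT18 and KRT19 were present in both groups and not called. The log2 fold change of KRT18 was -0.69 (FDR = 0.0153 by limma). EPCAM was weak, at 1.19 ± 0.523 FPKM in Ctrl and 0.695 ± 0.288 FPKM in MIR21-KO (n = 3 each, SD), and was not called. CDH1 was called lower (log2 fold change -1.48). The log2 fold change was negative for 4 of the 6 markers, with a median of -0.45. All 4 endothelial markers had at most 3 reads in every library. Of 6 immune markers, only CD14 was tested, at 3.46 ± 0.294 FPKM in Ctrl and 4.31 ± 0.996 FPKM in MIR21-KO (n = 3 each, SD), and it was not called. CD68 had 0 to 8 and CD79A 3 to 14 reads per library, below the filter. PTPRC, CD3E and LYZ had at most 3 reads in every library. Summed FPKM of 8 fibroblast markers was 7.74 to 8.43 in Ctrl and 13.7 in each MIR21-KO library, with 3 of the 8 tested and THY1 called higher (log2 fold change 1.60). COL1A1 was at 3.41 ± 0.188 FPKM in Ctrl and 3.91 ± 0.591 FPKM in MIR21-KO (n = 3 each, SD) and, like LUM, was not called. Below the filter, COL3A1 had 5, 14 and 8 reads in Ctrl and 55, 45 and 56 in MIR21-KO, and PDGFRB had 1, 3 and 2 reads in Ctrl and 8, 9 and 15 in MIR21-KO, without overlap of the groups. PDGFRA had 3 to 13 reads per library with overlapping groups, DCN had at most 3 reads, and COL1A2 had none in any library. The part of these markers in the results below was not tested. Genome-wide, 2568 of 16006 genes (16%) were called at an FDR under 0.01 by limma, 1226 higher (7.66%) and 1342 lower (8.38%) in MIR21-KO. This total fell to 918, 933 and 889 without Ctrl replicate 1, 2 or 3, respectively, and to 784 without MIR21-KO replicate 2.

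Upon MIR21 deletion, NFIX mRNA was about doubled, NFIB mRNA was lower in each MIR21-KO library, and differences of NFIC and NFIA were within the spread between libraries. One of the 4 members, NFIX, was called at an FDR under 0.01, that is 25% against 16% of all tested genes. Fold changes are log2 ratios of FPKM + 0.1 in MIR21-KO relative to Ctrl, and the added constant shrinks them for weakly expressed genes. FDRs were obtained by limma with Benjamini-Hochberg adjustment over all 16006 genes.

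**Figure D1:**
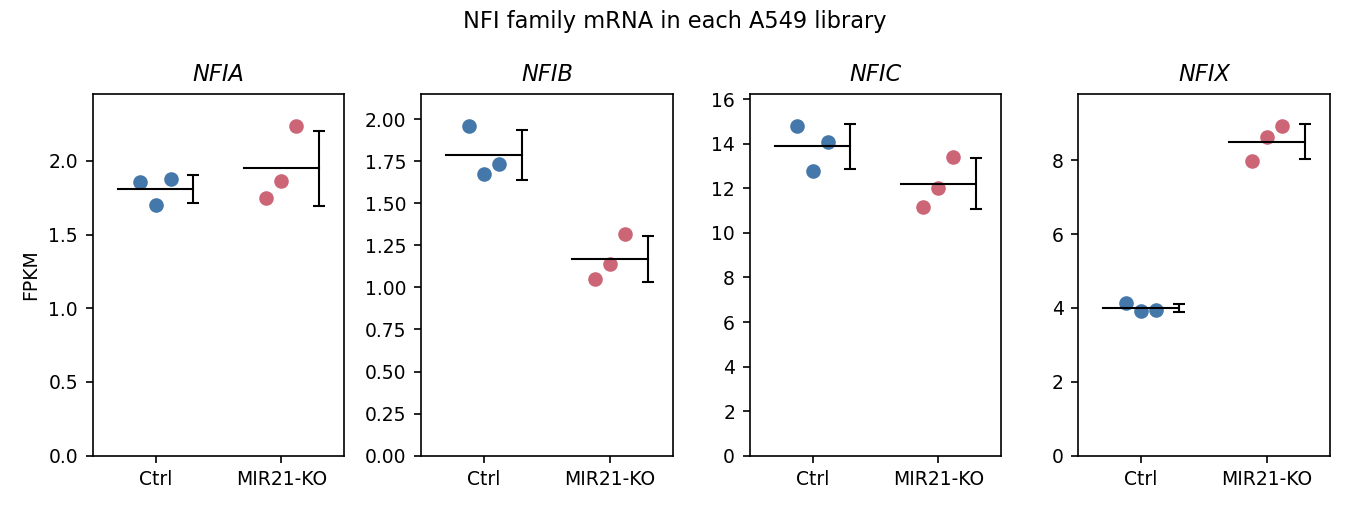
FPKM (y axis, from 0, own scale per panel) of NFIA, NFIB, NFIC and NFIX in each of 3 Ctrl (blue) and 3 MIR21-KO (red) libraries. Points are libraries, horizontal lines are means and error bars are SDs. The groups are separate for NFIX (at most 4.13 against at least 7.98 FPKM) and NFIB (at least 1.68 against at most 1.32 FPKM), and overlap for NFIA and NFIC.

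NFIX (ENSG00000008441, chromosome 19, 12995608 to 13098796, plus strand, GRCh38) was at 4.13, 3.92 and 3.94 FPKM in the Ctrl libraries and at 7.98, 8.63 and 8.92 FPKM in the MIR21-KO libraries. The groups did not overlap, and every MIR21-KO value was well above the highest Ctrl value. Mean levels were 4.0 ± 0.111 and 8.51 ± 0.482 FPKM, respectively (SD, n = 3 each), a ratio of 2.13. The log2 fold change was 1.07 ± 0.0856 (SE), with a 95% confidence interval of 0.87 to 1.27 and an FDR of 0.000339 by limma. In absolute size this change exceeded that of 89.8% of tested genes. NFIX passed the threshold under each of the 17 alternative settings, with log2 fold changes of 0.93 to 1.11 and FDRs of 3.84e-05 to 0.00703. NFIX was also the member without a miR-21-5p seed match in its annotated 3′ UTRs.

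NFIB (ENSG00000147862, chromosome 9, 14081843 to 14398983, minus strand) was at 1.96, 1.68 and 1.74 FPKM in Ctrl and at 1.05, 1.139 and 1.32 FPKM in MIR21-KO. All 3 MIR21-KO values lay below all 3 Ctrl values. Groups without overlap, counted in either direction, were seen for 48.1% of tested genes. Means were 1.79 ± 0.148 and 1.17 ± 0.135 FPKM (SD, n = 3 each), a ratio of 0.653. Its log2 fold change of -0.58 ± 0.158 (SE), with a 95% confidence interval of -0.95 to -0.20, reached an FDR of 0.0318 by limma and was therefore not called. The value was negative under all 16 alternatives, from -0.66 to -0.36, with FDRs of 0.00481 to 0.116. NFIB passed an FDR of 0.01 with voom on recovered reads (log2 fold change -0.62, where 11.4% of all tested genes were called lower), and it passed an FDR of 0.05 in the limma fit, as did 16.8% of tested genes in this direction. The 8mer and 7mer-A1 sites shown above lie in the NFIB 3′ UTR, and the mRNA was not higher in any MIR21-KO library than in any Ctrl library.

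NFIC (ENSG00000141905, chromosome 19, 3314403 to 3469217, plus strand), the most abundant member, was at 14.8, 12.8 and 14.1 FPKM in Ctrl and at 11.2, 12.03 and 13.4 FPKM in MIR21-KO. The ranges overlap, with MIR21-KO replicate 3 above Ctrl replicate 2. Means were 13.9 ± 1.02 and 12.2 ± 1.13 FPKM (SD, n = 3 each). The log2 fold change of -0.18 ± 0.098 (SE) had a 95% confidence interval of -0.42 to 0.05 and an FDR of 0.196 by limma. It stayed negative and above the FDR threshold under all 17 alternatives.

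NFIA (ENSG00000162599, chromosome 1, 60865259 to 61462793, plus strand) was at 1.86, 1.70 and 1.88 FPKM in Ctrl and at 1.75, 1.86 and 2.23 FPKM in MIR21-KO. Only MIR21-KO replicate 3 lay above the Ctrl range. Means were 1.81 ± 0.0956 and 1.95 ± 0.254 FPKM (SD, n = 3 each), and the log2 fold change was 0.09 ± 0.145 (SE; 95% confidence interval -0.25 to 0.44, FDR = 0.658 by limma). Without MIR21-KO replicate 3 it was -0.0038. The interval leaves room for a rise of this mRNA, which holds the 8mer shown above, to 0.44 on the log2 scale. The smallest change detectable with these libraries was not determined. For each of the 4 members, MIR21-KO replicate 3 held the highest and MIR21-KO replicate 1 the lowest value within its group.

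**Figure D2:**
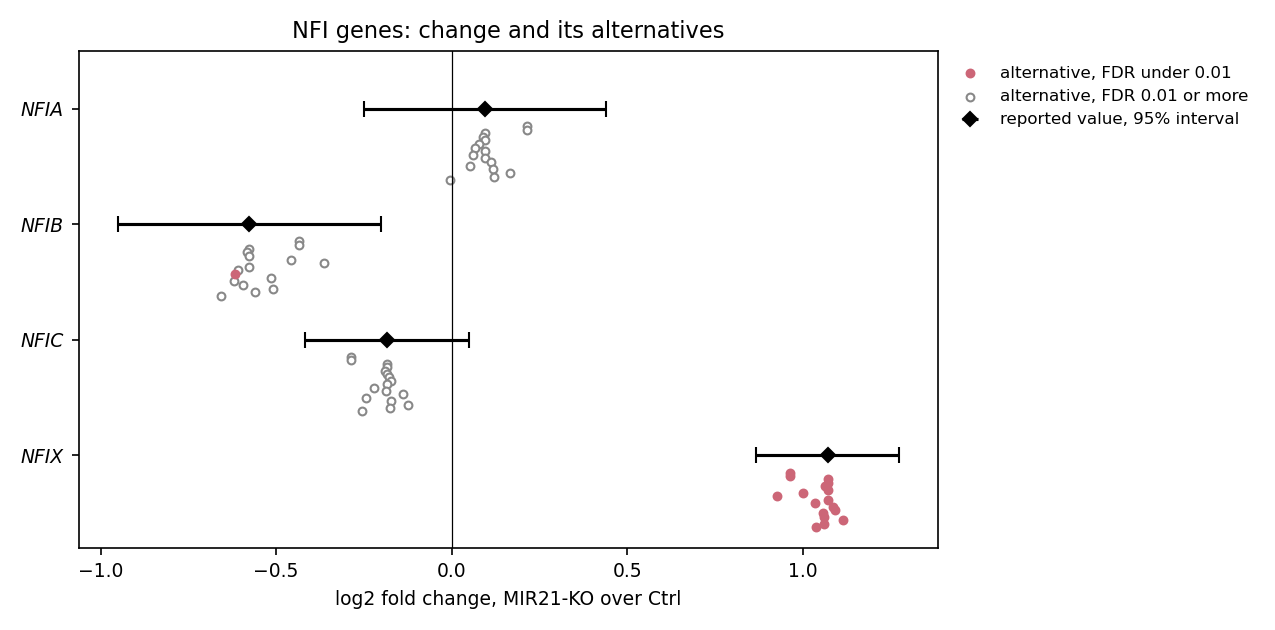
log2 fold change (x axis, MIR21-KO over Ctrl) of each NFI gene. Black diamonds with bars are the reported limma values with 95% confidence intervals, and circles below them are the alternative settings, filled where the FDR was under 0.01. NFIX lies between 0.93 and 1.11 and is filled throughout, NFIB lies between -0.66 and -0.36 with 1 filled circle (voom), and NFIA has 1 value below 0.

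Considered as a pool, the 4 mRNAs summed to 22.7, 20.1 and 21.6 FPKM in Ctrl and to 22.0, 23.7 and 25.9 FPKM in MIR21-KO, and these ranges overlap. The make-up of the pool differed more clearly than its size. NFIX took 18.2%, 19.5% and 18.2% of the summed FPKM in Ctrl and 36.3%, 36.5% and 34.4% in MIR21-KO. NFIC made up 65.1%, 63.6% and 65.1% in Ctrl but 50.9%, 50.8% and 51.9% in MIR21-KO, so that it remained the major member. NFIB contributed 8.61%, 8.34% and 8.02% in Ctrl and 4.79%, 4.81% and 5.08% in MIR21-KO. NFIA was at 8.17%, 8.47% and 8.67% in Ctrl and at 7.96%, 7.87% and 8.63% in MIR21-KO. Shares of NFIX, NFIC and NFIB did not overlap between the groups, whereas those of NFIA did. Since shares add up to a whole, a larger share of NFIX lowers the others, and the share of NFIC differed without a called change of its level.

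**Figure D3:**
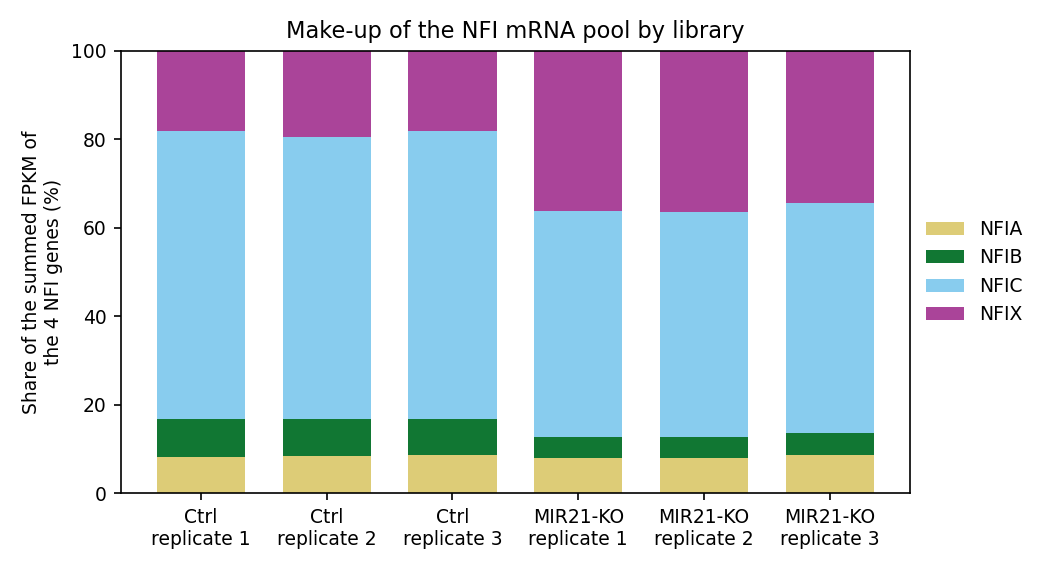
Share (y axis, percent of the summed FPKM of the 4 NFI genes) taken by each member in each of the 6 libraries (x axis). NFIX takes 18.2% to 19.5% of each Ctrl bar and 34.4% to 36.5% of each MIR21-KO bar, and NFIC is the largest segment in every library.

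In both groups the order of levels per length began with NFIC and NFIX. Per length, NFIA and NFIB were close in Ctrl, with a log2 ratio of NFIA to NFIB of -0.08, 0.02 and 0.11 in the 3 libraries. In MIR21-KO this ratio was 0.73, 0.71 and 0.76, and NFIB was the least abundant member in each library. By reads not divided by length, NFIB exceeded NFIA in each Ctrl library, with 11.9%, 11.6% and 11.1% of the pool against 9.64%, 10.1% and 10.2%. The log2 ratio of NFIC to NFIX was 1.84, 1.70 and 1.84 in Ctrl and 0.49, 0.48 and 0.59 in MIR21-KO, which corresponds to mean ratios of 3.47 and 1.43. The largest shift between members was that of NFIB relative to NFIX, whose log2 ratio was -1.16 ± 0.0783 in Ctrl and -2.87 ± 0.0937 in MIR21-KO (n = 3 each, SD). The log2 ratio of NFIA to NFIC moved by 0.28 ± 0.0429 (SE). These ratios were not tested.

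To examine whether transcripts around the members moved with them, annotated genes within 200 kb of the NFI loci were considered. Of these, 4 genes overlap NFIA on either strand, 2 overlap NFIB, 2 overlap NFIC and 3 overlap NFIX, and none of the overlapping genes passed the expression filter. They include the antisense transcripts NFIA-AS1, with 0 reads, and NFIA-AS2, with 1 read in each of MIR21-KO replicates 2 and 3. The highest value among the overlapping genes was 5 reads, for AC007787.2 in Ctrl replicate 3. Of 33 tested neighbours, all near NFIC or NFIX, 1 was called higher and 2 were called lower, that is 9.09% against 16% of all tested genes, with a median log2 fold change of -0.12. HOOK2, which encodes a microtubule linker, rose from 3.12 ± 0.051 to 5.69 ± 0.608 FPKM near NFIX (log2 fold change 0.84, FDR = 0.0021 by limma). NCLN, which encodes the ER protein nicalin, fell from 33.2 ± 0.777 to 19.2 ± 3.0 FPKM near NFIC, and the antisense transcript KF456478.1 fell from 5.72 ± 0.949 to 3.176 ± 0.340 FPKM (FDR = 0.00326 and 0.00771 by limma, SD over n = 3 libraries). KF456478.1 lies 192275 bases from NFIC without overlapping it, and had 18 to 34 reads per library. This count of neighbours called was 0 when Ctrl replicate 1, 2 or 3 or MIR21-KO replicate 2 was left out, and 7 when MIR21-KO replicate 3 was. LYL1, which ends 237 bases from NFIX on the opposite strand and was picked after its values were seen, was at 0.302, 0.328 and 0.188 FPKM in Ctrl and at 1.08, 1.05 and 0.816 FPKM in MIR21-KO (FDR = 0.0121 by limma). It had 8 to 12 reads per Ctrl library and 33 to 46 per MIR21-KO library. The strand setting used for counting is not given in the sources used here, and whether reads of 1 gene were counted for the other was not tested.

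The next question was how genes behaved that have been reported, in other cell types, to be bound or regulated by NFI proteins. Of 27 such genes, 15 passed the expression filter. At an FDR under 0.01, 6 were called higher and 4 lower, while 5 were not called, and the median log2 fold change was 0.17 against -0.02 for all tested genes. These 10 calls are 66.7% of the tested list members against 16% genome-wide, but the list was compiled with results of these data known, and nothing particular to it is drawn from the count. Genes described in glial, neural and muscle cells were not uniformly silent, since HES1, SOX9, NEFL and ENO3 passed the filter. In contrast, FABP7, MMD2, APCDD1, GABRA6, CNTN2 and MYOG had at most 3 reads in every library, and GFAP was at 0.236 ± 0.0665 FPKM in Ctrl and 0.321 ± 0.0759 FPKM in MIR21-KO (n = 3 each, SD), below the filter.

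Among the genes that rose, IGFBP5, a secreted binding protein of insulin-like growth factors, had 1, 0 and 0 reads in the Ctrl libraries and 1329, 1379 and 1689 reads in the MIR21-KO libraries, corresponding to 15.1, 17.5 and 20.2 FPKM (FDR = 7.57e-06 by limma). HES1, a Notch-responsive repressor on whose promoter NFIA acts in neural progenitors, was at 3.58, 5.37 and 4.54 FPKM in Ctrl and at 17.1, 14.4 and 13.8 FPKM in MIR21-KO, with a log2 fold change of 1.74 ± 0.162 (SE; FDR = 0.000627 by limma). No value of HES1 in MIR21-KO was near the Ctrl range. ZCCHC24, a zinc finger gene, rose from 2.44 ± 0.267 to 8.66 ± 0.871 FPKM, and NEFL, the neurofilament light chain, rose from 0.419 ± 0.123 to 2.31 ± 0.0463 FPKM (SD, n = 3 each), the latter from 18 to 26 reads per Ctrl library.

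Among the genes that fell, CCND1 (cyclin D1, which drives the G1 phase) was at 81.9, 75.9 and 78.1 FPKM in Ctrl and at 25.0, 27.3 and 27.9 FPKM in MIR21-KO. Its log2 fold change was -1.55 ± 0.0756 (SE; FDR = 6.44e-05 by limma), and the groups were far apart. CDH1, the epithelial adhesion molecule E-cadherin and also 1 of the 6 epithelial markers, fell from 8.18 ± 0.584 to 2.86 ± 0.148 FPKM. KLF4, a zinc finger factor of epithelial differentiation, fell from 1.90 ± 0.370 to 0.534 ± 0.0395 FPKM, and rested on 22 to 27 reads per MIR21-KO library. The fourth gene, EZH2, the Polycomb methyltransferase, is named after its values were seen and fell from 13.99 ± 0.353 to 9.92 ± 0.559 FPKM (SD, n = 3 each). Abundant genes of the list that were not called include FTH1 (ferritin heavy chain, log2 fold change 0.17 ± 0.155), CDKN1A (the cell cycle inhibitor p21, 0.27 ± 0.0968) and ENO3 (the muscle enolase, 0.07 ± 0.186; all SE).

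**Figure D4:**
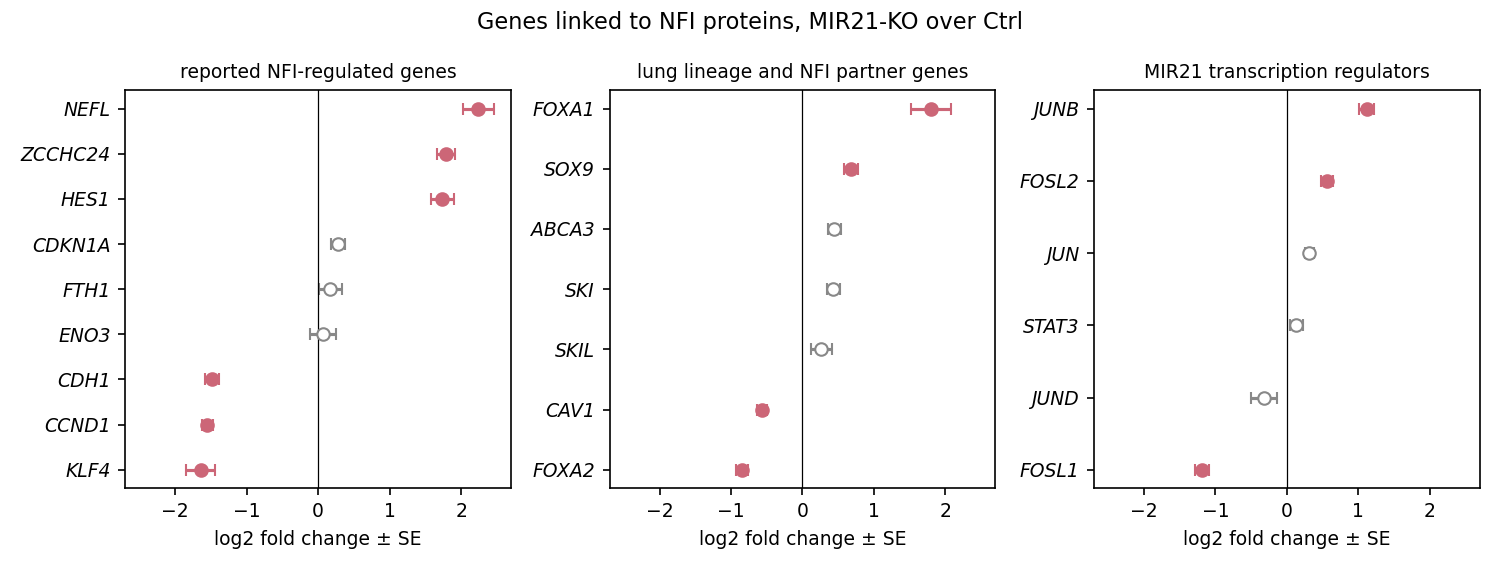
log2 fold change of FPKM + 0.1 (x axis, MIR21-KO over Ctrl, bars are SE) of the named genes in 3 lists: genes reported as NFI-regulated, lung lineage and NFI partner genes, and other regulators of MIR21. Filled red points passed an FDR of 0.01 by limma and open grey points did not. Both directions occur in each list, from -1.64 (KLF4) to 2.24 (NEFL), and IGFBP5 is left out because its Ctrl libraries held at most 1 read.

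NFIB acts in lung epithelium together with forkhead and NKX2-1 factors, hence lung lineage genes and NFI partners were considered next. Only 9 of 22 passed the filter, 2 being called higher and 2 lower (44.4% against 16% of all tested genes), with a median log2 fold change of 0.43. This list was also compiled with results of these data known, and nothing particular to it is drawn from the count. The pair of forkhead pioneer factors moved in opposite directions. FOXA1 was at 0.434, 0.724 and 0.661 FPKM in Ctrl and at 1.95, 1.97 and 3.21 FPKM in MIR21-KO (log2 fold change 1.80 ± 0.273, SE, FDR = 0.00387 by limma). FOXA2, the more abundant of them, was at 16.6, 15.5 and 16.8 FPKM in Ctrl and at 9.64, 9.13 and 8.41 FPKM in MIR21-KO (log2 fold change -0.84 ± 0.0818, SE, FDR = 0.000691 by limma). SOX9, a factor of distal lung progenitors that is also among the reported NFI-regulated genes, rose from 9.56 ± 1.09 to 15.3 ± 1.04 FPKM. CAV1, the caveolin of alveolar type I cells, fell from 142.9 ± 2.80 to 96.4 ± 4.38 FPKM (SD, n = 3 each).

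Not called were SKI (log2 fold change 0.43 ± 0.0866, FDR = 0.0103) and SKIL (0.27 ± 0.148, FDR = 0.217), both corepressors that can bind NFI proteins, and ABCA3, the lamellar body lipid transporter of type II cells (0.45 ± 0.0943, FDR = 0.0126, all SE and limma). Genes of the lung epithelium on this list ranged from abundant to near absent. Besides CAV1 and ABCA3, NAPSA passed the filter, at 0.595 ± 0.116 FPKM in Ctrl and 0.690 ± 0.1504 FPKM in MIR21-KO (n = 3 each, SD), and was not called. The surfactant gene SFTPD, below the filter and named after its values were seen, had 0, 0 and 1 reads in Ctrl and 12, 5 and 4 reads in MIR21-KO. NKX2-1, HOPX, SFTPA1, SFTPA2, SFTPB, SLC34A2, AQP5, PDPN and SCGB1A1 had at most 3 reads in every library. The count of 4 called genes was 2 without Ctrl replicate 1 and 1 without Ctrl replicate 2, Ctrl replicate 3 or MIR21-KO replicate 2.

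Since NFIB has been described as a repressor of MIR21, other factors reported to act on the MIR21 promoter were compared. Of 15 such genes, 12 were tested, 2 were called higher and 1 lower (25% against 16% of all tested genes), and the median log2 fold change was 0.08. The list was likewise compiled with results of these data known, and nothing is drawn from this share. The 3 called genes encode AP-1 subunits, as do 6 of the 12 tested genes by the choice of the list, and the AP-1 genes JUN, JUND and FOS were not called. JUNB was at 36.3, 31.4 and 38.1 FPKM in Ctrl and at 79.97, 80.5 and 69.0 FPKM in MIR21-KO, a log2 fold change of 1.12 ± 0.105 (SE; FDR = 0.000656 by limma). FOSL2 rose from 38.2 ± 2.103 to 56.7 ± 3.97 FPKM, whereas FOSL1 fell from 33.6 ± 2.19 to 14.8 ± 1.41 FPKM (SD, n = 3 each), with log2 fold changes of 0.57 and -1.18. Among the members not called, JUN had a log2 fold change of 0.32 ± 0.0644 (FDR = 0.011), STAT3 of 0.13 ± 0.0936 (FDR = 0.317) and JUND of -0.31 ± 0.183 (FDR = 0.235, all SE and limma). The primary MIR21 transcript was not measured here.

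Finally, the protein-coding genes whose profile over the 6 libraries was most like that of each member were listed by Pearson's r of log2(FPKM + 0.1). The 6 libraries fall into 2 groups, so for NFIX and NFIB a high r mostly restates a difference between Ctrl and MIR21-KO. DACT1, which encodes a Dishevelled-binding protein, ITGB3 (integrin beta 3) and MXD1 (a MAX partner) were most like NFIX, with r = 0.9999, 0.9997 and 0.9996, and 959 tested protein-coding genes had an r above 0.95. ITGB3 went from 1.23 ± 0.105 to 14.9 ± 2.67 FPKM and DACT1 from 0.725 ± 0.0391 to 3.34 ± 0.361 FPKM (SD, n = 3 each), both larger changes than that of NFIX. PCM1 (a centriolar satellite scaffold), SETD7 (a lysine methyltransferase) and KPNA3 (an importin alpha) were most like NFIB, with log2 fold changes of -0.67, -0.71 and -0.76 and each called at an FDR under 0.01, and 1014 genes had an r above 0.95. For NFIA, whose groups overlap, PKD2 (a cation channel), DPY19L1 (a mannosyltransferase) and SRGAP2B were closest (r = 0.994, 0.993 and 0.993), and 62 genes had an r above 0.95. SRGAP2B is a partial copy of SRGAP2, so its reads are uncertain. For NFIC they were TEX9, SYNJ2 (an inositol phosphatase) and POU2F1 (the octamer factor OCT1), with 274 genes above 0.95. None of these NFIA-like and NFIC-like genes was called. Like NFIA and NFIC, each had its lowest Ctrl value in replicate 2 and rose from MIR21-KO replicate 1 to replicate 3. A high r for them thus mostly restates an order of libraries. NFIB, PCM1, SETD7 and KPNA3 had the same order within each group, beside their difference between the groups. The source of that order was not tested.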

How the data were processed

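The authors deposited a table of 58174 genes with gene length, FPKM per library, and 3 columns of their own comparison (log2 fold change, p-value, FDR), which were not used. The submitters' processing notes name cutadapt 1.14, HISAT2 2.1.0, SAMtools 1.5, featureCounts 1.5.3, edgeR 3.18.1 and hg38. The annotation release, the strand setting and the treatment of reads shared by paralogs are not given in the sources used here. FPKM times gene length gave whole reads for 100% of values (tolerance 0.01), so a sum of reads was obtained per library, and the size used by the authors for scaling was 0.950 to 1.03 times that sum.

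The 16006 genes reaching 0.5 FPKM on average were fitted on log2(FPKM + 0.1) with limma 3.58.1 (eBayes with trend and robust fitting, no covariate) in R 4.3.3. Tests were two-sided, and genes with a Benjamini-Hochberg FDR under 0.01 were called. A count model was not run, since the deposited unit is FPKM, and voom on recovered reads served as an alternative. Gene identifiers matched GENCODE 29 for 57836 genes (99.4%), and 3′ UTRs of at least 30 bases were searched. Figures were drawn with matplotlib 3.10.9.

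Groups and replicate numbers came from the sample titles. Members and lists were chosen with earlier results of these data known, and list genes were compiled from general knowledge. Named were the 4 members, per list up to 8 called genes with at least 1 FPKM in a group (by p) and the 3 most abundant genes not called, neighbours that were called or overlap a member, and the 3 genes most like each member. For 1 gene that the rule names, values are not reported here.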

Additional observations from a re-analysis of the deposited data

How the results depend on the processing

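The rise of NFIX was called under all 17 alternatives, and NFIC under none. NFIB was called with voom only (log2 fold change -0.62). The log2 fold change of NFIA ranged from -0.0038 (without MIR21-KO replicate 3) to 0.215 (GC and length trends removed, FDR = 0.170 by limma). With 1 library left out, its highest value was 0.1643 (without MIR21-KO replicate 1). The count of NFI members called, 1, was 2 with voom on recovered reads and 2 at an FDR under 0.05, and stayed at 1 whichever library was left out.

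The study states no pairing of libraries, so the numbers were not treated as pairs. Same-numbered libraries did not deviate together (r = -0.171, -0.018 and -0.017 for numbers 1 to 3). With a replicate block, 651 genes were called in all (main 2568), 6 reported NFI-regulated genes (main 10), 1 lung lineage or partner gene (main 4) and 0 genes near the NFI loci (main 3), and NFIX was called at an FDR of 0.00703. With trends on GC content and length removed, calls were 3960 in all, 6 MIR21 regulators (main 3) and 9 genes near the loci. At an FDR under 0.05 they were 5114, 5 and 7, respectively. Genes near the loci gave 5 calls with scaling by total recovered reads and 5 with voom. Leaving out 1 library at a time gave 784 to 3418 calls in all, 7 to 11 reported NFI-regulated genes, 1 to 5 lung lineage or partner genes, 2 to 4 MIR21 regulators and 0 to 7 genes near the loci. A minimum mean of 5 FPKM leaves out NFIA and NFIB and gave no value for them. The causes of these differences were not tested. Counted by reads without division by length, NFIX held 12.8% of the pool in Ctrl and 26.4% in MIR21-KO.

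With 3 libraries per group, the intervals of NFIA and NFIC leave room for changes of the sizes they span. The smallest detectable change was not determined. NFIA and NFIB rested on 178 to 318 reads per library.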
